A study of Rattus norvegicus with 6 samples.

Results

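The 4 circular RNAs (circRNAs) of the rat lung described here are ASCRPR011652, ASCRPR012663, ASCRPR013228 and ASCRPR003111, out of 14145 on the array. They were picked by their array IDs because earlier results of these data showed them higher on the arrays of monocrotaline-treated rats than on those of saline-treated rats, with the largest excess on the array of MCT replicate 2. The contrast between the groups therefore chose them, and their differences are given below as a description with no test. All 4 belong to the 11280 circRNAs that were marked well above background on 3 or more of the 6 arrays. These are called the tested circRNAs below, although no test between the groups is reported for them.

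The study took lungs of male rats, labelled as 6 weeks old, 28 days after they had received monocrotaline (MCT) once into the peritoneum, at 60 mg per kg, or the same volume of saline, and perfused them with PBS. Whether the age is that at the dose or at sampling is not labelled. Each group held 3 samples, each on 1 single-colour array. The labels name no strain, give no measure of disease and do not say that each sample was a separate animal, so the spread between samples may be partly technical. Monocrotaline is a plant alkaloid that the liver converts into a metabolite toxic to the endothelium of lung vessels, and the treated rat is widely used as a model of pulmonary arterial hypertension.

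A circular RNA forms when a splice donor is joined back to an upstream splice acceptor, which closes 1 or more exons into a ring without free ends. Rings resist exonucleases, so RNase R digestion before labelling removes most linear RNA and leaves circles enriched. Because a circle is spliced from the precursor of its host gene, its level can differ with transcription of the host, with the choice between circular and linear splicing, or with turnover. The files pair none of the 4 with a host gene or a sequence, so each is known only by its array ID and what its host gene does is not stated here. In whole lung, more cells of a type and more RNA per cell cannot be told apart.

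Levels are given on 2 scales. The processed signal is the background-subtracted brightness of the spot in fluorescence units, not scaled between arrays. The scaled level is its log2 minus the array's own 75th percentile, so that 0 marks that percentile. The percentile itself stood at 93.9, 75.6 and 94.5 units on saline 1 to 3 and at 41.4, 95.2 and 32.3 units on MCT 1 to 3. MCT 1 and MCT 3 were thus dimmer than the other 4 arrays, and scaling adds to their values. By the scan identifiers in the file headers, the saline arrays and MCT 1 shared 1 slide scan and MCT 2 and MCT 3 another.

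All 4 circRNAs were measurable throughout. Each has a single spot on the array, and all 24 values (4 circRNAs on 6 arrays) were marked well above background, with 0 saturated and 0 marked as outliers. The median brightness of their spots was 4.06 to 14.1 times the local background on saline arrays and 5.85 to 67.7 times on MCT arrays. The error that the extraction software assigns to each signal was at most 10.5% of the signal.

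ASCRPR011652 showed the largest difference of the 4. Its processed signal was 64.6, 38.5 and 64.5 units on saline 1 to 3 and 222, 705 and 92.9 units on MCT 1 to 3. Every MCT signal thus lay above every saline signal even before scaling, with MCT 3 closest to the saline arrays. Its scaled level was -0.54, -0.97 and -0.55 on the saline arrays and 2.43, 2.89 and 1.52 on the MCT arrays. The group means were -0.69 ± 0.25 (SD, n = 3) and 2.28 ± 0.69 (SD, n = 3), a difference of 2.97 ± 0.42 (SE from limma over all tested circRNAs), or 7.82-fold.

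ASCRPR012663 followed the same course with a smaller difference. Its processed signal was 78.7, 56.3 and 93.6 units on saline 1 to 3 and 250.4, 699 and 97.8 units on MCT 1 to 3. Before scaling, the lowest MCT signal exceeded the highest saline signal by a factor of 1.05, which is within the error of a spot. The scaled level was -0.25, -0.42 and -0.01 on saline 1 to 3 and 2.60, 2.88 and 1.60 on MCT 1 to 3, so that after scaling the groups were far apart. The means were -0.23 ± 0.21 (SD, n = 3) and 2.36 ± 0.67 (SD, n = 3), a difference of 2.59 ± 0.41 (SE), or 6.01-fold.

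ASCRPR013228 varied less between MCT arrays than the 2 before it. Its processed signal was 93.9, 80.1 and 133 units on saline 1 to 3 and 313, 795 and 149 units on MCT 1 to 3. The unscaled groups did not overlap, but the lowest MCT and the highest saline signal differed only by a factor of 1.12. Its scaled level was 0.00, 0.08 and 0.49 on the saline arrays and 2.92, 3.06 and 2.21 on the MCT arrays. The means were 0.19 ± 0.26 (SD, n = 3) and 2.73 ± 0.46 (SD, n = 3), a difference of 2.54 ± 0.37 (SE), or 5.80-fold.

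ASCRPR003111 was higher on every MCT array only after scaling. Its processed signal was 119, 119 and 208.0 units on saline 1 to 3 and 407, 1072 and 204 units on MCT 1 to 3. Without scaling MCT 3 therefore lay just below saline 3, and the groups overlapped. The scaled level was 0.34, 0.66 and 1.14 on saline 1 to 3 and 3.30, 3.49 and 2.66 on MCT 1 to 3, with no overlap. The means were 0.71 ± 0.40 (SD, n = 3) and 3.15 ± 0.44 (SD, n = 3), a difference of 2.44 ± 0.39 (SE), or 5.42-fold. Across the 4 the MCT minus saline difference ran from 2.44 to 2.97, a range not far above these standard errors.

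**Figure D1:**
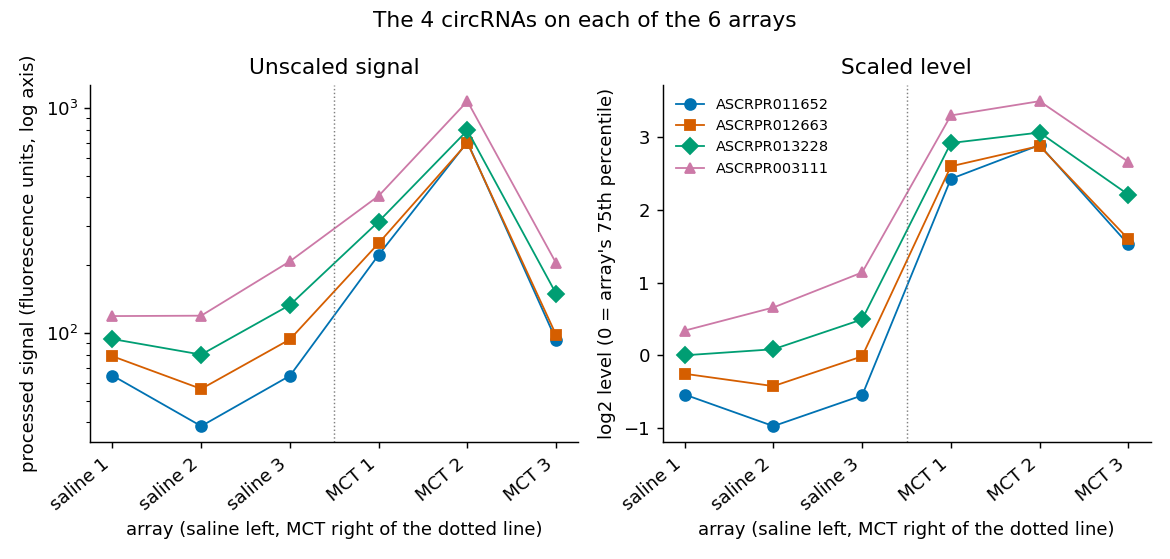
Processed signal in fluorescence units on a log axis (left) and scaled log2 level (right) of the 4 circRNAs on each array, 1 point per array, with lines that only join the points of 1 circRNA. All 4 were highest on MCT 2 on both scales, and on the left MCT 3 came down to the saline arrays, at 204 units against 208.0 units on saline 3 for ASCRPR003111.

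The authors' processed log2 values showed the same separation. They ran from 6.41 to 8.18 for the 12 saline values of the 4 circRNAs and from 8.31 to 10.5 for the 12 MCT values. In each circRNA the lowest MCT value exceeded the highest saline value, by 1.65 for ASCRPR011652, 1.23 for ASCRPR012663, 1.30 for ASCRPR013228 and 1.07 for ASCRPR003111. Ranked among all circRNAs of its array, the 4 stood between percentiles 59.8 and 87.7 on saline arrays and between percentiles 89.3 and 97.7 on MCT arrays.

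Slide and treatment are partly tied together, since slide 2 holds no saline array. Within slide 1, where only MCT 1 can be set against the saline arrays, the differences were 3.11 for ASCRPR011652, 2.83 for ASCRPR012663, 2.73 for ASCRPR013228 and 2.59 for ASCRPR003111. Each was larger than the difference over all 6 arrays, but rests on MCT 1 alone. With the slide as a block the same values came with standard errors of 0.59 to 0.64, wider than this excess. For MCT 2 and MCT 3, slide and treatment cannot be told apart.

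A complete separation of the groups was itself not rare. If the arrays were exchangeable, 1 of the 20 assignments of 3 against 3 would give it by arrangement alone. The circRNAs share array-wide effects, so the shares below are no test. On scaled levels all 3 MCT arrays lay above all 3 saline arrays for 858 of the 11272 tested circRNAs with a value on every array, or 7.61%, the 4 included by choice. On unscaled signals this held for 165, or 1.46%, with 3 of the 4 among them. The members were chosen from these same values, so their places by the width of the separation describe the choice. The lowest MCT level exceeded the highest saline level by 2.06 for ASCRPR011652, 1.72 for ASCRPR013228, 1.61 for ASCRPR012663 and 1.52 for ASCRPR003111, which were places 1, 2, 3 and 5 among the tested circRNAs. The place between them belonged to ASCRPR012567, named after its values were seen, at 1.55, and the next below was at 1.45. By the mean difference alone the members were less extreme, at places 5, 13, 16 and 21.

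The 4 circRNAs stood highest on MCT 2, the array that otherwise resembled saline most. Over the tested circRNAs the median absolute distance from the saline mean was 0.30 on MCT 2, against 0.51 on MCT 1 and 0.72 on MCT 3. Each saline array lay 0.31 to 0.40 from the mean of the other two saline arrays, so that by this measure MCT 2 was no farther from saline than the saline arrays were from each other. An excess over the saline mean of at least 4-fold was found for 13 circRNAs on MCT 2, 116 on MCT 1 and 379 on MCT 3. These were 0.12%, 1.03% and 3.36% of the 11272 tested circRNAs with a value on every array, in that order. MCT 1 and MCT 3 were also the dimmer arrays, with fewer circRNAs detected. Well above background were 78.7% of the circRNAs on MCT 2, 63.1% on MCT 1 and 55.1% on MCT 3. On saline 1 to 3 it was 80.3%, 80.3% and 84.5%. The part of brightness and detection in these distances and counts was not tested. All 4 members were among the 13 and among the 116, and 2 of the 4 were among the 379. The 4 had been chosen as higher on MCT arrays, most of all on MCT 2, so this restates the choice.

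The members' own excess over the saline mean was largest on MCT 2. They had been chosen for this pattern, so their places on that array restate the choice. ASCRPR011652 stood 3.58 above the saline mean, or 11.9-fold, the highest value of all tested circRNAs on that array. ASCRPR012663 stood 3.11 above (8.62-fold, place 2), ASCRPR013228 2.87 above (7.31-fold, place 3) and ASCRPR003111 2.78 above (6.87-fold, place 5). Place 4 was held by ASCRPR006768, named after its values were seen, at 2.81. Its scaled level was -2.32 on saline 2 and -2.43 on saline 3 but far higher on saline 1, so its saline mean rests on arrays that disagree. For comparison, 95% of the tested circRNAs lay below 0.77 on MCT 2.

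On MCT 1 the same circRNAs stood nearly as far above saline but less far out among the others. Their excess was 3.11, 2.83, 2.73 and 2.59 in the order ASCRPR011652, ASCRPR012663, ASCRPR013228 and ASCRPR003111, at places 22 to 48. On MCT 3 it was 2.21, 1.83, 2.02 and 1.95 in that order, at places 284 to 514. Their places fell as their own excess fell and as the distribution over all tested circRNAs broadened. Its 95th percentile was 1.23 on MCT 1 and 1.78 on MCT 3. Which of these set the places was not tested.

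**Figure D2:**
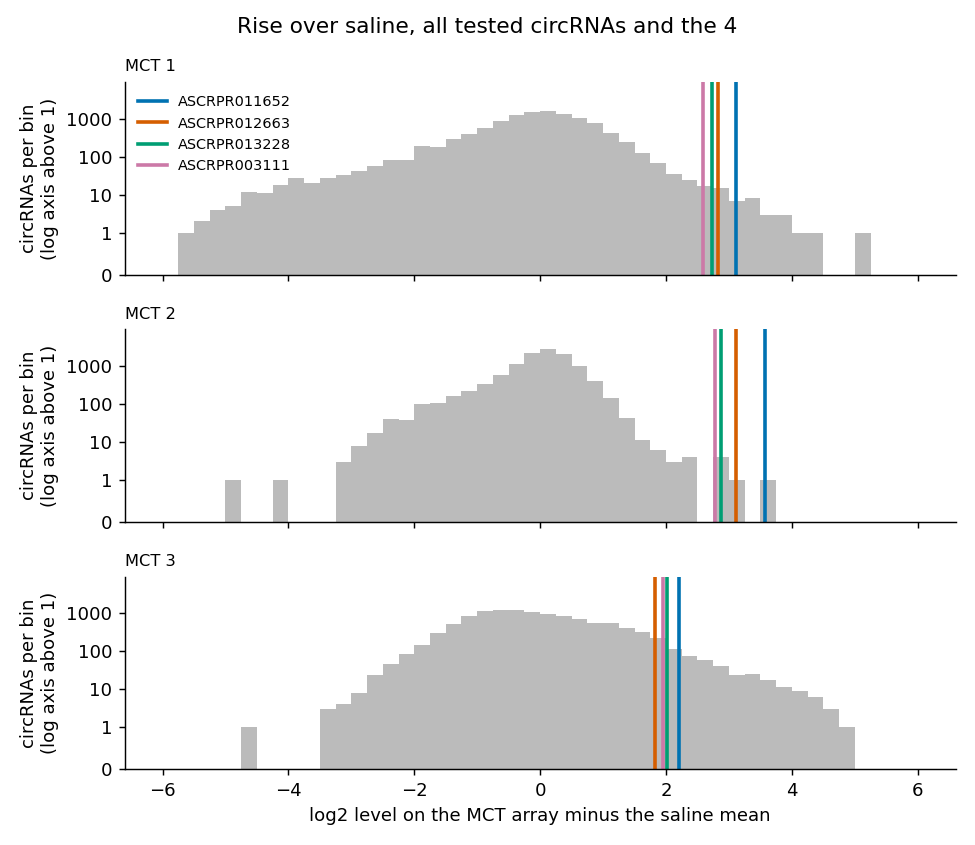
Histograms of the log2 level on each MCT array minus the saline mean for 11272 circRNAs (grey, counts on a log axis above 1), with the 4 circRNAs as coloured lines. The lines lie between 1.83 and 3.58 on all 3 arrays, at the far right end on MCT 2 and inside the broader distribution on MCT 3.

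The lead of MCT 2 over MCT 1 was small after scaling. MCT 2 exceeded MCT 1 by 0.46 for ASCRPR011652, 0.28 for ASCRPR012663, 0.14 for ASCRPR013228 and 0.20 for ASCRPR003111. The software's error of a difference between 2 such spots was 0.20, so that ASCRPR013228 and ASCRPR003111 lay within it. A spot error leaves out the spread between samples. Before the software's spatial correction of the signal (its multiplicative detrend) the lead was 0.18 for ASCRPR011652 and 0.15 for ASCRPR012663. It was 0.03 for ASCRPR013228 and 0.24 for ASCRPR003111. The lead thus shrank for the first 3, to below 0.20, and grew for the last, to above it. The correction had multiplied the signal of ASCRPR011652 by 0.82 on MCT 1, where its spot lies in the outermost column. On the same array the factor was 0.92 for ASCRPR012663, 0.93 for ASCRPR013228 and 1.03 for ASCRPR003111. MCT 2 remained the highest MCT array for each of the 4 in all 7 scalings compared, including no scaling, where its lead over MCT 1 was 1.35 to 1.67. The lead over MCT 3 was 0.83 to 1.37 on scaled levels.

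Array brightness ran in the same order as the members' levels. The 75th percentile of signal was highest on MCT 2, lower on MCT 1 and lowest on MCT 3, which is also the order of each of the 4. Its part in the members' order was not tested. Among all 11272 circRNAs MCT 2 was the highest MCT array for 41.4%, and the order MCT 2, MCT 1, MCT 3 was found for 30.3%. Among the 858 whose groups did not overlap, MCT 2 was the highest for 68, or 7.93%. All 4 members were among the 68, as they had been chosen for this pattern.

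**Figure D3:**
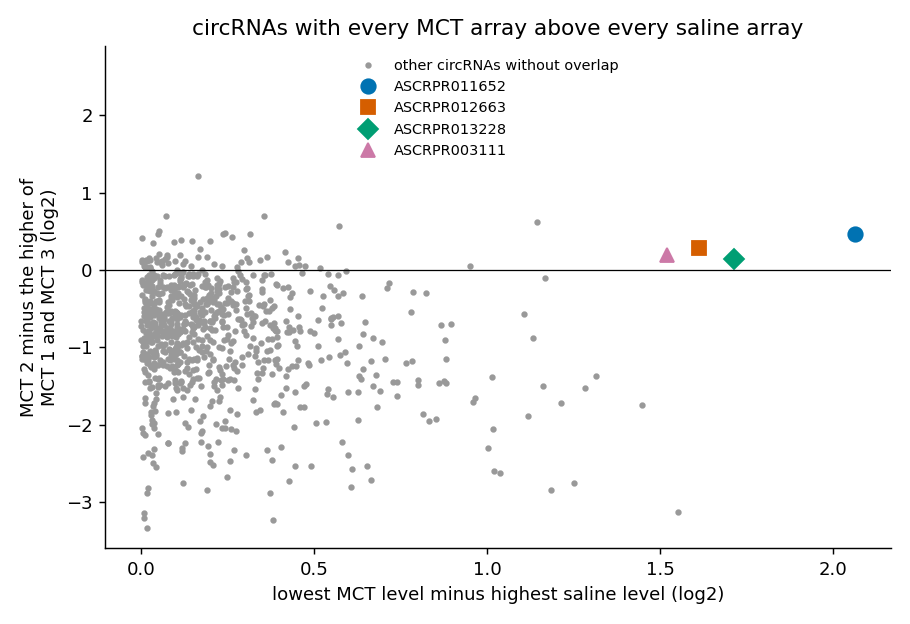
Each point is 1 of the 858 circRNAs with all MCT arrays above all saline arrays, placed by the gap between the groups (horizontal, log2) and by MCT 2 minus the higher of MCT 1 and MCT 3 (vertical, log2). The 4 circRNAs lie at gaps of 1.52 to 2.06 and above the zero line, while most points lie at small gaps and below it.

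The 4 circRNAs varied together. Over the 6 arrays Pearson's r of their scaled levels was 0.978 to 0.997 in the 6 pairs (mean 0.990), highest for ASCRPR011652 with ASCRPR012663 and lowest for ASCRPR011652 with ASCRPR003111. With 2 groups that the choice of members had set apart, such values mostly restate the choice. Deviations from the group means are bound by it as well, because the 4 were also chosen for their high level on MCT 2. The r of these deviations was 0.97 for ASCRPR011652 with ASCRPR012663, 0.96 for ASCRPR013228 with ASCRPR003111 and 0.95 for ASCRPR012663 with ASCRPR013228. It was 0.86, 0.84 and 0.71 in the other pairs. All values come from the same 6 arrays, 4 of whose deviations are free, and are a description.

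Among MCT arrays the choice of members fixes the upward deviation on MCT 2, so the agreement there is a description of that choice. All 4 deviated upwards on MCT 2, by 0.61, 0.52, 0.33 and 0.34 in the order ASCRPR011652, ASCRPR012663, ASCRPR013228 and ASCRPR003111. On MCT 1 the deviations were 0.15, 0.24, 0.19 and 0.15, and on MCT 3 they were -0.76, -0.76, -0.52 and -0.49. On saline arrays, all 4 lay above their mean on saline 3, by 0.14 to 0.43, and all 4 below it on saline 2, with deviations from -0.29 to -0.05. They divided on saline 1, where ASCRPR011652 stood at 0.15 and the other 3 between -0.37 and -0.02. Many other circRNAs deviated in a like way. Of the other 11268 tested circRNAs, 27.8% had a mean r of deviations with the 4 at or above 0.71, the lowest value within the set.

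**Figure D4:**
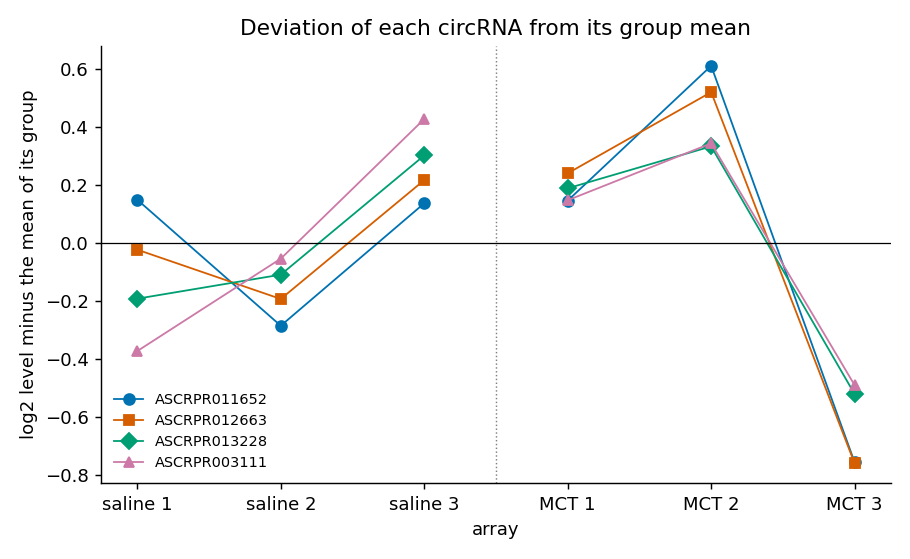
Scaled log2 level of each of the 4 circRNAs minus the mean of its own group, by array, with lines that only join the points of 1 circRNA within a group. All 4 deviate in the same direction on each MCT array, from 0.33 to 0.61 upwards on MCT 2 and from -0.76 to -0.49 on MCT 3, and they cross on the saline arrays.

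Few other circRNAs reached the correlation within the set, whose height follows from the choice of members by the same contrast. Only 2 of the other 11268 (0.02%) had a mean r with the 4 over the 6 arrays at or above the lowest value within the set. That value is the r of 1 pair, 0.978. A mean r of 0.9 was reached by 41 (0.36%). The closest, ASCRPR007053 (mean r 0.99), differed far less between the groups, with a saline mean of -0.75 ± 0.01 (SD, n = 3) and an MCT mean of -0.15 ± 0.11 (SD, n = 3), or 1.52-fold. Its unscaled signal was 55.4, 45.1 and 56.4 units on saline 1 to 3 and 38.2, 91.6 and 26.8 units on MCT 1 to 3. It thus lay below every saline array on MCT 1 and MCT 3 before scaling. ASCRPR002448 (mean r 0.98) averaged -2.76 ± 0.10 (SD, n = 3) in saline lungs and -2.14 ± 0.20 (SD, n = 3) in MCT lungs, or 1.54-fold, and was well above background on 5 of the 6 arrays. The likeness in shape therefore came with a difference much smaller than the 5.42-fold to 7.82-fold of the 4.

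The surroundings of the 4 spots did not share their excess. The spots lie at row 166 and column 1 (ASCRPR011652), row 60 and column 20 (ASCRPR012663), row 56 and column 15 (ASCRPR013228) and row 112 and column 6 (ASCRPR003111). ASCRPR012663 and ASCRPR013228 thus lie near each other and the other two apart. All 4 lie between columns 1 and 20, while ASCRPR002448, for example, lies at column 69. Among the 11 to 18 tested circRNAs within 2 rows and 2 columns of each, the median distance from the saline mean on MCT 2 ran from -0.03 to 0.42. The highest single value of a neighbour on MCT 2 was 1.18, beside ASCRPR013228. The local background at the 4 spots was 15 to 19 units on saline and 15 to 23 units on MCT arrays. Its mean log2 differed by 0.09 between groups (p = 0.4, exact two-sided permutation test over 20 assignments, n = 3 against 3, smallest possible p 0.1).

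The array also measures linear transcripts that survived RNase R. The 31 linear probes measured on 3 or more arrays had a median distance from the saline mean of -0.24 on MCT 1, -0.17 on MCT 2 and -0.27 on MCT 3. Set against the mean of the other two saline arrays, it was 0.14 on saline 1, 0.17 on saline 2 and -0.24 on saline 3, so the MCT values lay near the low end of the saline spread. None of 24 lung, blood, heart and liver marker genes listed for a check of the tissue was among the 39 linear probes with a gene symbol, so the tissue label and the mix of cells were not checked.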

How the data were processed

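Circular RNA was measured in 6 rat lung samples on 1-colour (Cy3) Agilent-format arrays after RNase R digestion and random-primed labelling, per the labels' protocols. Per the file headers, the deposited intensity values were extracted with Agilent Feature Extraction, version 11.0.1.1. The authors' table holds log2 values, for which the submitters' processing notes name limma with no step; its background treatment and scaling method are not given in the sources used here, and it served as an alternative. Spots marked as non-uniform or population outliers were left out, spots of 1 probe averaged, and each array's 75th percentile over all non-control probes subtracted from log2 processed signal. The 11280 circRNAs marked well above background on 3 or more arrays were fitted with limma 3.58.1 in R 4.3.3 (all 6 arrays, no covariate), used only for standard errors. The fit was checked on simulated data. As alternatives, signals were left unscaled, quantile-normalized, scaled by the percentile of probes detected on every array, or corrected with normexp (offset 50) before quantile normalization; others were the authors' values, slide or replicate number as a block, other filters, and leaving out each array. The signal before detrending was added after seeing the data. The members, lists and rules were chosen with earlier results of these data known. Named circRNAs are the 4, the 2 most like them by mean r, and 2 that stood between them in rank. Array number limits the precision. 0 columns of values were left without a sample. The 62 linear probes were named through RefSeq accessions of assembly GRCr8, and 39 matched.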

Additional observations from a re-analysis of the deposited data

How the results depend on the processing

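The 4 circRNAs kept a higher mean in MCT lungs in every alternative run. Without scaling, the differences were smaller, at 2.17 for ASCRPR011652, 1.79 for ASCRPR012663, 1.74 for ASCRPR013228 and 1.64 for ASCRPR003111. With normexp and quantile normalization they were 2.14, 1.89, 1.98 and 1.98 in that order, and the excess on MCT 2 was 2.71 for ASCRPR011652, 2.45 for ASCRPR012663 and 2.43 for ASCRPR013228. The other alternatives moved each difference and each excess on MCT 2 by less than the standard error of that circRNA's MCT minus saline difference. The count of 858 circRNAs with complete separation became 165 without scaling and 1733 with no filter on dim probes, which admits more circRNAs. With 1 array left out, which makes separation easier, it ran from 1125 to 2377, with the highest count without MCT 2; it was 1592 without MCT 3. The difference then ran from 2.66 to 3.35 for ASCRPR011652, 2.33 to 2.97 for ASCRPR012663, 2.37 to 2.80 for ASCRPR013228 and 2.25 to 2.68 for ASCRPR003111, and the mean r from 0.988 to 0.998. The replicate number as a block leaves the differences as they were by construction (2.97 for ASCRPR011652) with standard errors of 0.53. Over the tested circRNAs, deviations correlated at -0.23 for number 1, -0.36 for number 2 and -0.45 for number 3, none of them positive. With 3 arrays in each group and deviations bound to their group mean, these values cannot decide whether the numbers mark pairs. Except where the construction shows it, the cause was not tested.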
